A study of Mus musculus with 2 samples.

Results

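The 10 genes described here, Pecam1, Cdh5, Kdr, Tek, Tie1, Vwf, Eng, Cldn5, Plvap and Esam, are markers of the endothelium, the cell layer that lines blood vessels. They were chosen by name and role, with earlier results of these data known. The array held 16 probes for the 10 genes among 41167 probes that are not controls, and Esam was found under its older array name Esam1. At least 1 probe was well above background for 7 genes, of 10456 genes measured in all, and the probes of Pecam1, Tek and Tie1 were not well above background in either channel of array 1. Pla2g2f-transgenic mice (Pla2g2f-Tg/+) were compared with littermate controls, both C57BL/6 and 25 days old, on 2 arrays of skin RNA. Each genotype was 1 pool of RNA from 4 mice. The transgenic pool carried Cy5 on array 1 and Cy3 on array 2. Nothing in the labels says that the arrays held separate pools, so they were counted as 1 replicate per genotype and no p-value was computed. If they held the same pools, a difference between the arrays is technical, and if not it also holds the spread between pools. The sources used here do not name the promoter that drives the transgene. Whole skin was profiled, in which a difference in the number of vessel cells and one in the RNA per cell (fewer cells or less RNA, more cells or more RNA) cannot be told apart.

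Endothelial cells are held together by junctions in which the cadherin encoded by Cdh5 and the claudin encoded by Cldn5 bind the same protein on the next cell. Growth and survival signals reach them through receptor tyrosine kinases, among them the VEGF receptor of Kdr and the angiopoietin receptor of Tek with its relative Tie1. In inflamed skin the vessels of the dermis are known to widen and to admit leukocytes, and endothelial cells store von Willebrand factor, the product of Vwf, in granules that they release when activated.

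All 7 measured endothelial genes lay above 0, that is higher in the transgenic than in the control pool, on each array, with a median log2 ratio of 0.63 and means between 0.54 and 1.08. Above 0 on each array were 35.3% of all genes measured and below 0 on each 35.7%, and their median was -0.0079. A gene was called higher where it was at least 2-fold higher on each array, and 1 of the 7 passed, Vwf, against 3.72% of all genes. No endothelial gene (0) was called lower, against 1.68% of all genes. At least 1.5-fold higher on each array were 2 of the 7, Vwf and Kdr, against 8.26% of all genes. Between 4.19% (Vwf) and 12.1% (Eng) of all genes had means as high as or higher than these genes. Eng passed the filter only through the transgenic channel, and the 3 unmeasured genes enter none of these counts.

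These values are relative to the scaling of the arrays by the scanner program. The spike-in RNAs, whose designed ratios cancel when the dyes are exchanged, lay 0.46 log2 units above 0 in the transgenic direction, between 0.43 and 0.51 over 10 probes. Centred on them, the median of the 7 genes was 0.17 and that of all genes -0.47, and the distance between them, 0.64, is the same on both scales because 1 constant is taken from every gene. Then 4 of 7 (Kdr, Plvap, Vwf and Esam) lay above 0 on each array, against 10.7% of all genes. On that scale 0 of 7 were called higher, against 1.68% of all genes. Which of the 2 scales is nearer to the RNA content of the skin was not tested.

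Vwf was read by 3 probes of 60 bases, and their first 30 bases are shown because the probes of this gene differed in brightness and in ratio. All are on the plus strand of chromosome 6 in the array's mm8 coordinates, at chr6:125652152-125652211 for the brightest, chr6:125651459-125651518 for the second and chr6:125570169-125570228 for the remaining probe, which was designed on another transcript record. No annotation of that build was used here, so exons, introns and UTRs are not assigned. The measured probes of the other genes lie at chr8:107033388-107033447 for Cdh5, chr16:18691516-18691575 for Cldn5, chr9:37287630-37287689 for Esam and chr2:32503799-32503858 for Eng, on the plus strand. Those of Kdr, at chr5:76214981-76215040, and Plvap, at chr8:74426967-74427026, are on the minus strand.
Vwf brightest probe: caagtgaggcctgtgcagctacagcggatt
Vwf second probe: ccaaggtgcagtacatcaaagtgggagatt
Vwf remaining probe: ggttcctgcgtaaaagtaagttggaactcc

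Among the secretion and activation genes, Vwf had processed signals of 1174 in the transgenic pool and 550 in the control pool on array 1 by its brightest probe. Its log2 ratios of 1.09 on array 1 and 1.06 on array 2 gave a 2.11-fold mean ratio (log2 1.08 ± 0.02, SD of the 2 arrays). The second probe of Vwf gave 581 in the transgenic pool and 352 in the control pool, with log2 ratios of 0.72 and 0.81, which did not reach 2-fold. The remaining probe was not well above background in either pool. The call of Vwf therefore rests on the brightest probe, and with the measured probes averaged its mean was 0.92 and it was not called. Plvap, whose protein forms the diaphragms of small openings in the vessel wall, had signals of 999 in the transgenic pool and 675 in the control pool. Its log2 ratios were 0.57 and 0.70 on the 2 arrays, a 1.55-fold mean ratio (log2 0.63 ± 0.09). Both genes lay above 0 on both arrays, and Vwf alone of the pair reached 2-fold.

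**Figure D1:**
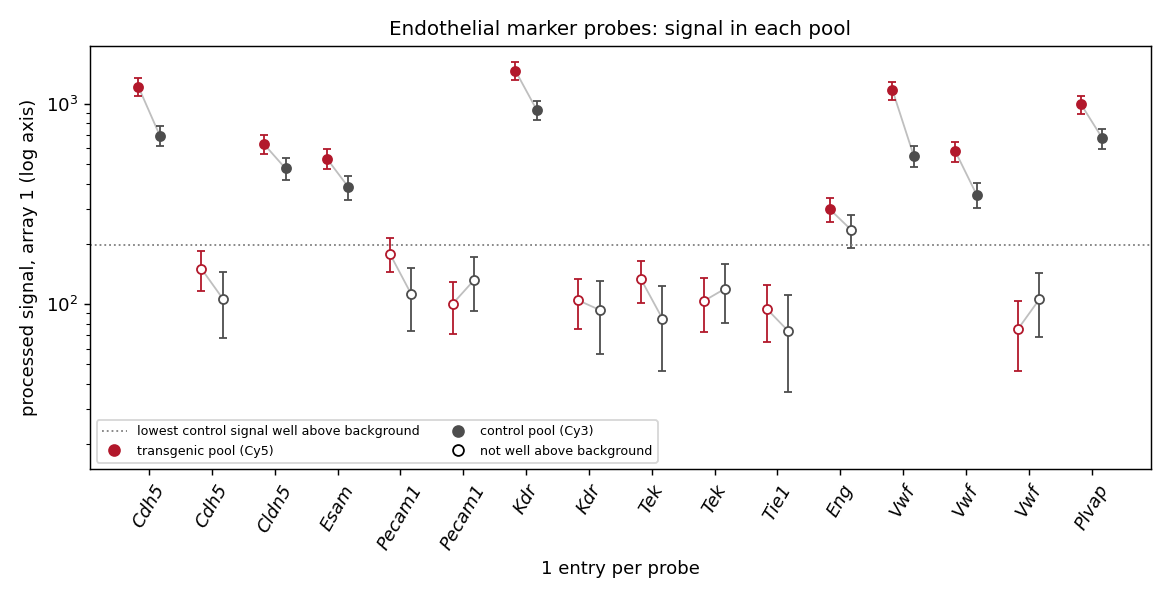
Processed signal of each endothelial probe on array 1 (log axis), transgenic pool in red and control pool in grey, with bars for the signal error given by the scanner program. The filled red points of the measured genes, between 299 and 1466, lie above their control points, while open points near or under the dotted line at 198 were not well above background.

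Of the junction genes, Cdh5, VE-cadherin, had signals of 1217 in the transgenic pool and 695 in the control pool by its measured probe. Its log2 ratios were 0.81 on array 1 and 0.29 on array 2. Cldn5, the claudin of tight junctions in vessels, had 629 in the transgenic pool and 477 in the control pool. Its log2 ratio was 0.40 on array 1 but 1.42 on array 2, so it was 2.68-fold apart on the second array alone and was not called. Esam, an adhesion molecule of endothelial junctions, had 533 in the transgenic pool and 385 in the control pool, with log2 ratios of 0.47 and 0.73. The means were 0.55 ± 0.37 for Cdh5, 0.91 ± 0.72 for Cldn5 and 0.60 ± 0.18 for Esam (SD of the 2 arrays), and 0 of the 3 were called. The ratio of Cdh5 was larger on array 1 and those of Cldn5 and Esam were larger on array 2, so the arrays did not rank these genes alike.

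Pecam1, the platelet endothelial cell adhesion molecule, could not be measured. One probe had signals of 179 in the transgenic pool and 112 in the control pool, and the other had 100.4 in the transgenic pool and 132 in the control pool. The 100.4 was a surrogate that the scanner program gives to a dim spot. All 4 signals were not well above background, and the 2 probes pointed in opposite directions. No fold is given for it.

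Of the receptors, Kdr had signals of 1466 in the transgenic pool and 933 in the control pool. Its log2 ratios of 0.65 and 0.64 agreed within 0.02 between the arrays and gave a 1.56-fold mean ratio (log2 0.64 ± 0.01). Eng, endoglin, a co-receptor for TGF-beta family ligands, had 299 in the transgenic pool and 236 in the control pool, the control signal not well above background. Its log2 ratios were 0.34 and 0.73, and since its dim control signal exceeded the lowest one well above background, 198, the 1.27-fold ratio on array 1 is as measured and is no bound. Its mean was 0.54 ± 0.28. Tek had signals of 133 and 104 in the transgenic pool and 84.5 and 120 in the control pool by its 2 probes, and Tie1 had 94.7 in the transgenic pool and 73.5 in the control pool. Both Tie1 values were surrogates that the scanner program gives to dim spots. Neither angiopoietin-pathway receptor was well above background in either pool, so the angiopoietin side of the receptors was not measurable at this signal.

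**Figure D2:**
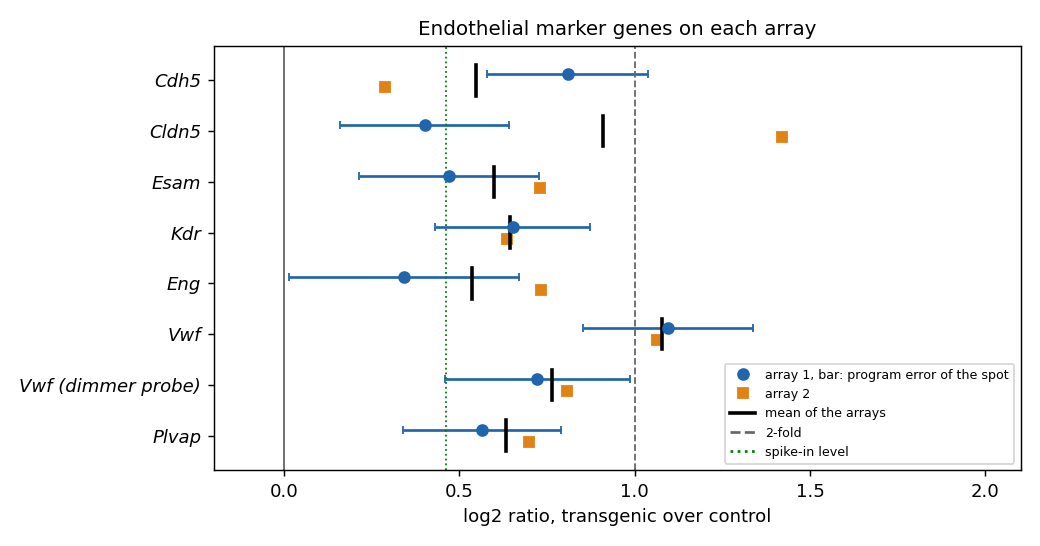
Log2 ratio of transgenic over control for each measured endothelial probe on array 1 (circles, with the spot error of the scanner program) and array 2 (squares), with the mean as a black tick. Kdr and both Vwf probes are close between the arrays, Cldn5 lies at 0.40 and 1.42, and the brightest Vwf probe is beyond the 2-fold line on each.

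The measured genes ran in the order Eng, Cdh5, Esam, Plvap, Kdr, Cldn5 and Vwf by mean, and the array values of each neighbouring pair overlapped. Vwf lay inside the wide span of Cldn5. The array values of Vwf, 1.06 and 1.09, lay above every value of the other genes but that of Cldn5 on array 2. The medians by role were 0.60 for 3 junction genes, 0.59 for 2 receptors and 0.86 for Vwf and Plvap, grouped here as secretion and activation. The median of Vwf and Plvap was 0.78 with the probes of a gene averaged. With normexp and loess for array 1 it was 0.62, against 0.44 for the junction genes and 0.46 for the receptors. The difference between the arrays was larger than the median over all genes, 0.23, for Cldn5, Cdh5, Eng and Esam.

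The scanner program gives an error for each spot of array 1, which covers that spot and not the mice. With a 95% interval from that error, the log2 ratio of Vwf spanned 0.62 to 1.57, that of Cdh5 0.36 to 1.26, that of Kdr 0.22 to 1.08 and that of Plvap 0.12 to 1.01. Those of Cldn5 (-0.07 to 0.87), Esam (-0.03 to 0.97) and Eng (-0.30 to 0.99) included 0. Before background removal and dye scaling these spots were only 21.3 to 86.4 scanner units above their local background in the transgenic channel and 26.2 to 67.6 in the control channel. The transgenic reading was the lower one there for Cldn5, Esam and Eng. The surface that the program removed averaged 37.8 units in the transgenic channel and 51.1 in the control channel of array 1, and the 3 genes had opposite signs before and after these steps.

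**Figure D3:**
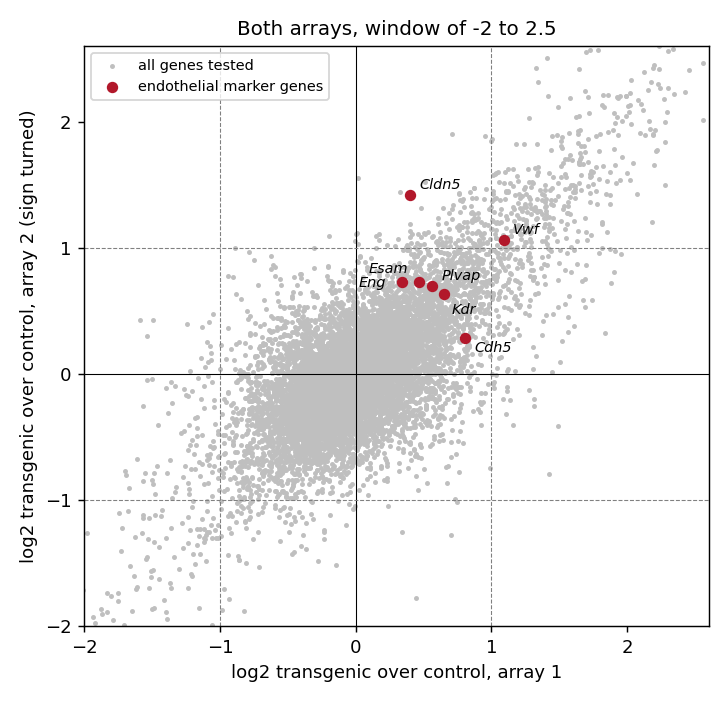
Log2 ratio of transgenic over control on array 1 (x axis) and array 2 (y axis) for the genes measured, in grey, and for the 7 measured endothelial genes, in red. The endothelial genes sit in the upper right quadrant, Vwf inside the 2-fold corner and Cldn5 past 2-fold on array 2 only; genes beyond the window are not drawn.

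Promoters were examined because ETS factors, which bind the core GGAA, are general regulators of endothelial genes. RefSeq promoters of assembly GRCm38.p6 were matched for Cldn5, Eng, Kdr, Tek and Tie1. The 250 bases before the gene start are printed for the 3 of these that were measured, with GGAA on either strand (TTCC on the strand shown) in capitals. They lie at chr5:75978456-75978705 on the minus strand for Kdr, chr2:32646345-32646594 on the plus strand for Eng and chr16:18776597-18776846 on the plus strand for Cldn5.
Kdr: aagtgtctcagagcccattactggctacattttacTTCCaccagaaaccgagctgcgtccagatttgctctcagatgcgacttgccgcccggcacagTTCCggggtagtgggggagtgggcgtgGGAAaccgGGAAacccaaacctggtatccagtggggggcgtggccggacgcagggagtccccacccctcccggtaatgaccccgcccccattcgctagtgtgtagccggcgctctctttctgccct
Eng: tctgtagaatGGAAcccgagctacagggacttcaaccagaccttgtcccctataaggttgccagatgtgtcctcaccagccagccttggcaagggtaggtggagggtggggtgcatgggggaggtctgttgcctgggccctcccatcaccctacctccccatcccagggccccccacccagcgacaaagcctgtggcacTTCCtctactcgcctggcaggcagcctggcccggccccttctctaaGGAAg
Cldn5: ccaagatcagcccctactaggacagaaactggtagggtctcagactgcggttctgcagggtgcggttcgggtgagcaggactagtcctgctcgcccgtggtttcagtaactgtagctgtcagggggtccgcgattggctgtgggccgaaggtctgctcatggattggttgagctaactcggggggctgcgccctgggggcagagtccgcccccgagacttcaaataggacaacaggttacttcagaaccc
GGAA occurred 4 times in the Kdr window, 3 times in that of Eng, 2 times in that of Tek, 7 times in that of Tie1 and not at all (0) in that of Cldn5. It was found in 93.4% of 32851 promoter windows of the same length, with a median of 3 matches. The longer forms AGGAAG or CGGAAG, which contain the core, were in 2 of the 5 windows (Eng and Tie1), against 39.2% of all windows. The GATA motifs AGATAA or TGATAA were in 0 of 5, against 16.6%. Cldn5 without a GGAA match and Kdr with 4 both lay above 0 on each array.

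Other genes of the vessel wall were taken from lists, and did not all lie where the 7 markers did. To set beside the counts of the lists, 35.3% of all genes lay above 0 on each array and 35.7% below 0. Of all genes 3.72% were called higher and 1.68% lower. Among the list genes named, Ackr1, Sox7, Angpt2, Reln, Abcc9, C1qa, Ptprc, Eln and Alas2 had dim control signals on array 1 and entered only through the transgenic channel. Sox17, Erg, Jam2 and Adm, which are in the counts, also entered only that way. C1qb entered only through the control channel. Of 14 other junction genes 11 were measured, with a median of 0.17 (0.11 by array 1 alone), 7 above 0 and 4 below 0 on each array. Gja1, a connexin that keratinocytes also make, fell to a signal of 3149 in the transgenic pool, against 6773 in the control pool, with a mean of -1.19. Emcn, endomucin, at 0.75, Icam2, a ligand of leukocyte integrins, at 0.62 and the connexin Gja4 at 0.41 were not called. Of 22 other receptors and signalling genes 14 were measured, with a median of 0.37 (0.23 by array 1 alone), 10 above 0 and 3 below 0 on each array. Unc5b, a netrin receptor, was the called one and fell to 753 in the transgenic pool, against 2190 in the control pool, with a mean of -1.49. Notch1, which keratinocytes also express, lay at -0.86, while Arap3 lay at 0.85 and Calcrl, the receptor subunit for adrenomedullin, at 0.71. The list holds genes that skin cells other than endothelium express, and which cells carry their change was not tested.

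Vascular growth factors had 9 of 16 genes measured and a median of 0.39 (0.18 with no filter on dim probes), with 0 called in either direction. The Notch ligand Jag1 had a mean of -0.93, Vegfd 0.77 and Egfl7, a protein secreted by endothelial cells, 0.58. Angpt2, an angiopoietin released by activated endothelium, had a mean of 0.81. Its control signal on array 1 was dim, which bounds the ratio there at at least 1.87-fold higher. Transcription factors of endothelium had 15 of 22 measured and a median of 0.54, with 10 above 0 and 4 below 0 on each array. Of the 10, Sox7, Sox17 and Erg entered only through the transgenic channel. The median of this list was 0.33 with both channels well above background, 0.29 with no filter and 0.34 with normexp and loess for array 1. Sox7 rose, with log2 ratios of 1.64 and 1.83, and, with a dim control signal of 152, had a bound of at least 2.39-fold higher for array 1. Nr2f2, a regulator of venous identity, lay at 0.97, the ETS factor Fli1 at 0.73 and Epas1 at 0.70, and these did not pass.

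Genes of leukocyte adhesion, clotting and other activated endothelium had 10 of 19 measured and a median of 0.50 (0.33 with no filter). Sele, Selp and Vcam1, selectins and an adhesion molecule of inflamed vessels, were not well above background, so that part of activation could not be assessed. Ackr1, a chemokine-binding receptor of venules, had a dim control signal and a bound of at least 1.61-fold higher for array 1, which does not reach 2-fold, and a log2 ratio of 1.45 on array 2. Procr, the protein C receptor, fell to 870 in the transgenic pool, against 3099 in the control pool, with log2 ratios of -1.83 and -1.89. Mmrn2 lay at 0.91 and Stab1 at 0.72 and were not called. On each array 7 genes of this list lay above 0 and 2 below.

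Capillary genes had 13 of 14 measured and a median of 0.59, with 11 above 0 on each array, against 35.3% of all genes. Of these 2 were called higher, against 3.72% of all genes. They were Cd36, a fatty acid transporter that adipocytes also make, at 2.25-fold and Rgcc at 2.09-fold. Sparcl1 at 0.78 and Cav1, caveolin, at 0.73 did not pass. The lymphatic list had 6 of 11 measured and a median of 0.55 (0.33 with no filter). Lyve1, a hyaluronan receptor of lymphatic vessels that some macrophages share, rose 3.58-fold, with 1098 in the transgenic pool and 294 in the control pool. Reln, with a dim control signal, had a bound of at least 2.09-fold higher for array 1 and a log2 ratio of 0.59 on array 2. Fgl2 lay at 0.68 and Maf at -0.58, and Prox1, Flt4, Pdpn, Mmrn1 and Ccl21a were not measured.

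Pericyte and smooth muscle genes had 14 of 16 measured and a median of 0.20 (0.13 by array 1 alone, 0.12 with the probes of a gene averaged), with 8 above 0 and 3 below 0 on each array. Kcnj8, a potassium channel subunit of pericytes, rose, with log2 ratios of 1.35 and 1.29, and its partner Abcc9, with a dim control signal, had a bound of at least 1.59-fold higher for array 1 and a log2 ratio of 0.88 on array 2. Rgs5 lay at 0.78 and Pdgfrb at 0.77, and neither passed. Of the smooth muscle genes in the list, Cnn1 lay at -0.66, Tagln at -0.46, Myh11 at -0.05 and Acta2 at -0.03. Mylk lay at 0.27 and Des at 0.10. The arrays differed in sign for Des (-0.62 on array 1 and 0.83 on array 2) and Acta2 (-0.28 and 0.22). The other measured probe of Acta2 had a mean of -0.59. Basement membrane genes had 11 of 12 measured and a median of 0.08, with 4 above 0 and 2 below 0. By array 2 alone that median was 0.21. Lama4, the laminin chain of endothelial basement membranes, rose 2.08-fold, while Lama5 lay at -0.55, Nid1 at 0.45 and Sparc at 0.25.

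**Figure D4:**
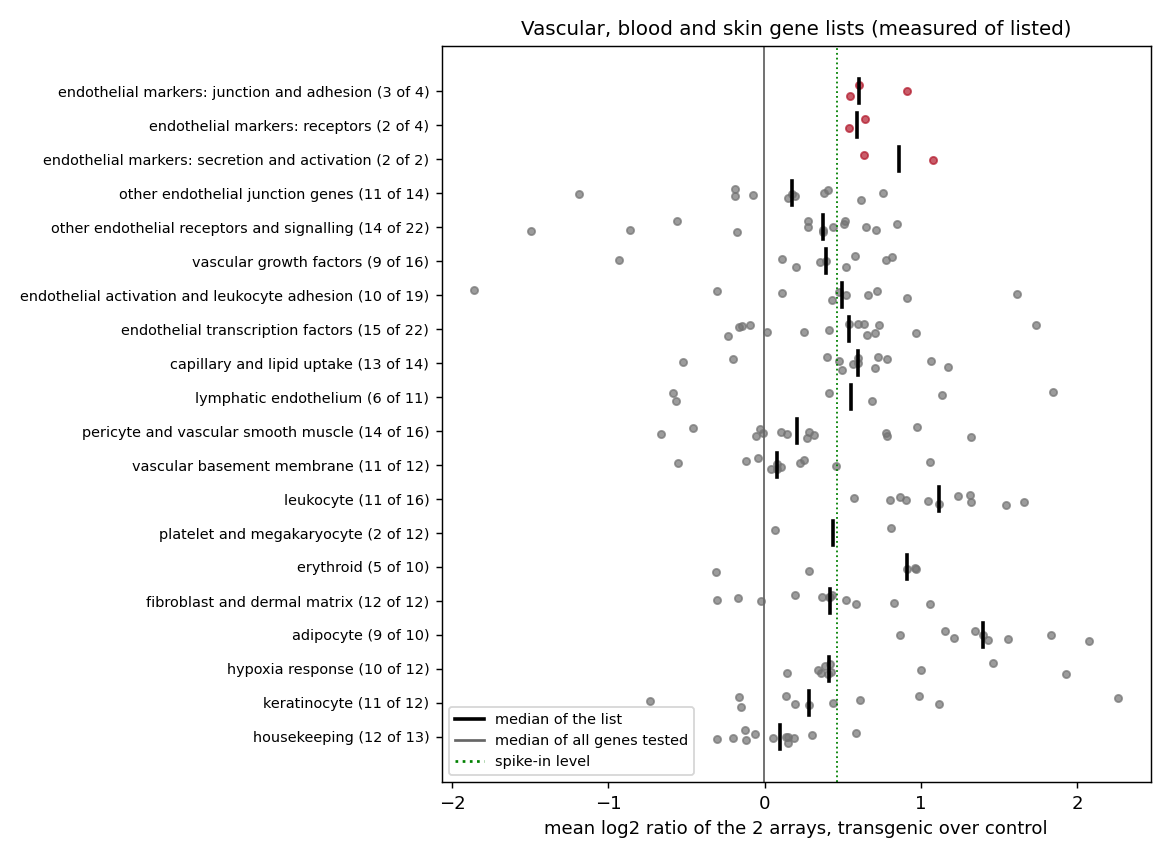
Mean log2 ratio of transgenic over control (x axis) for each measured gene of each list, 1 point per gene, with the list's median as a black tick and the endothelial markers in red. The 7 endothelial markers lie between 0.54 and 1.08, adipocyte and leukocyte genes have medians of 1.40 and 1.12, and pericyte and basement membrane genes have medians of 0.20 and 0.08.

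Lists of markers of other cell types also had medians above 0 on the deposited scale, though not every gene in them lay above 0. Leukocyte genes had 11 of 16 measured and a median of 1.12, with all 11 above 0 on each array, against 35.3% of all genes. Of the 11, 5 were called higher, against 3.72% of all genes. The summed signal of this list on array 1 was 34249 in the transgenic pool and 14697 in the control pool. Coro1a at 3.15-fold and Adgre1 at 2.48-fold were called, and C1qa had a bound of at least 1.76-fold higher for array 1 and a log2 ratio of 1.43 on array 2. Ptprc had a bound of at least 4.01-fold higher for array 1 but a log2 ratio of 0.17 on array 2. Itgam, Itgb2, Cd68, Cd14 and Laptm5 were not well above background. Platelets are known to carry Pecam1 and Vwf, and leukocytes Pecam1. Of 12 platelet genes 2 were measured, with medians of 0.82 by array 1 and 0.05 by array 2, Pf4 at 0.81 and Itgb3 at 0.06, with a summed signal of 4363 in the transgenic pool and 2438 in the control pool, and the defining Gp9, Gp1ba, Itga2b and Ppbp were not well above background. Erythroid genes had 5 of 10 measured and a median of 0.91, with Hba-a2 at 0.97, Hba-a1 at 0.96, Alas2 at 0.91 and Bpgm at -0.31 and a summed signal of 21022 in the transgenic pool and 11783 in the control pool. The erythroid median was 0.28 with no filter, 0.62 with both channels well above background and 0.62 with normexp and loess for array 1. The 2 globin genes are near-identical copies, so their values cannot be counted as independent. The part of these cells, and of blood left in the tissue, in the endothelial values was not tested.

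Adipocyte genes had 9 of 10 measured and a median of 1.40, and 7 were called higher, against 3.72% of all genes. The 7 included Cfd at 4.22-fold, Cidec at 3.55-fold, Fabp4 at 2.93-fold and Adipoq at 2.69-fold. The summed signal of the adipocyte list on array 1 was 362978 in the transgenic pool and 113836 in the control pool. Fibroblast and dermal matrix genes had 12 of 12 measured and a median of 0.42, with 9 above 0 and 3 below 0 on each array. Eln rose 2.08-fold and was dim in the control channel of array 1, Fbn1 lay at 0.83, Vim at 0.59 and Lum at 0.52. The 3 below 0 were Col1a1 at -0.30, Col1a2 at -0.17 and Dcn at -0.02. The summed signal of this list was 484748 in the transgenic pool and 447891 in the control pool. Hypoxia genes had 10 of 12 measured, all 10 above 0 on each array, against 35.3% of all genes. Adm among them entered only through the transgenic channel. The median of this list was 0.41, which was 0.65 by array 1 alone and 0.29 by array 2 alone. Slc2a1, the glucose transporter, rose, with log2 ratios of 2.20 and 1.65, and Egln3 rose 2.76-fold. Bnip3, at 0.98 on array 2, and Pgk1 at 0.42 did not pass. Keratinocyte genes had 11 of 12 measured and a median of 0.29. Krt1 at 4.79-fold and Krt14 at 2.17-fold were called higher, and Krt10 lay at 0.99 and Dsg1a at -0.73. Housekeeping genes had a median of 0.10 over 12 measured genes (0.03 by array 2 alone), with Gusb at 0.58, Sdha at 0.30, Tubb5 at -0.20 and Ppia at -0.30. The medians of all 20 lists, the housekeeping genes and the 3 roles of the markers included, lay above the median gene. The summed signal of a list on array 1 did not always follow its median. It was lower in the transgenic than in the control pool for other junction genes (16841 against 19253) and transcription factors (36372 against 36558). It was also lower for the lymphatic (18831 against 19554), pericyte (35453 against 41552) and housekeeping lists (353225 against 355985). For the rest of the lists it was higher. On the spike-in scale 10 of the 20 medians were below 0, those of the other junction genes (-0.29), other receptors (-0.09), growth factors (-0.07), pericytes (-0.26), basement membrane (-0.38), platelets (-0.03), fibroblasts (-0.05), hypoxia (-0.05), keratinocytes (-0.18) and housekeeping genes (-0.36). What the markers shared with other dermal cell types in their change was not tested.

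The transgene itself, Pla2g2f, a secreted phospholipase A2, had log2 ratios of 0.54 and 0.34 and was not called, and its mean on the spike-in scale was -0.02. On array 1 its signal was 683 in the transgenic pool and 471 in the control pool, and whether its probe lies in sequence that the transgene carries was not tested. Over all genes measured, 389 were called higher and 176 lower, so that 68.8% of calls were higher. On the spike-in scale the calls were 176 higher and 459 lower, or 27.7% higher. By array 1 alone 1 of the 7 endothelial genes was at least 2-fold higher (Vwf), against 5.43% of all genes, and by array 2 alone 2 (Cldn5 and Vwf), against 4.97%. With all measured probes of a gene averaged 0 of 7 were called higher, against 3.72% of all genes. With normexp and loess for array 1 it was 0 of 7, against 1.02%, and Vwf had a mean of 0.76. With no filter on dim probes 9 of 10, by the brightest probe of each, lay above 0 on each array, against 41.3% of all genes. Tie1 was among them by surrogate values on array 1.

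**Figure D5:**
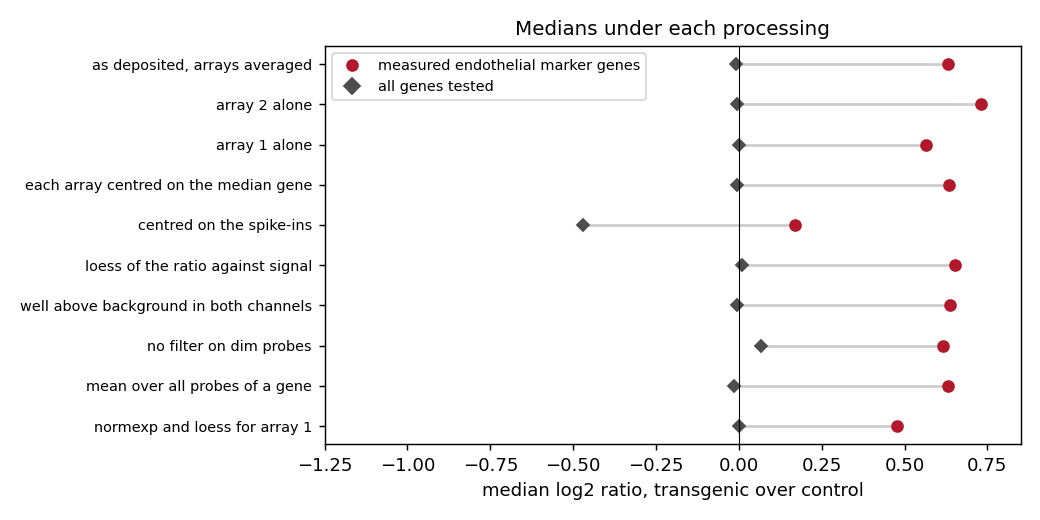
Median log2 ratio of transgenic over control (x axis) of the measured endothelial genes (red circles) and of all genes measured (grey diamonds) under each processing. The endothelial median stays right of the median of all genes in each, at 0.17 against -0.47 with the spike-ins and at 0.48 with normexp and loess for array 1.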

How the data were processed

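Skin RNA pooled by genotype was hybridised to 2 Agilent arrays of 2 colours, with the dyes exchanged. Whether each array had pools of its own is not stated. The spot intensity values and log10 ratios of array 1 are the deposited output of Agilent Feature Extraction 9.5.1.1, which, per the file headers, took off a fitted spatial surface, balanced the dyes with linear and LOWESS factors and gave surrogates to dim spots, which compress ratios near background. Its well-above-background flags, per the file headers, come from the same program. In the deposited value table each array has 1 column, found to be log10 ratios, with unit and steps unstated. For array 1 it equalled log10 of Cy5 over Cy3 at 43790 features (tolerance 1e-06), and the scale of array 2 was inferred. Before any turning, Pearson's r of the columns was -0.579 over 41534 spots, negative as for exchanged dyes, while the 10 spike-in probes, which follow the dye, correlated at 1.00. The column medians over all features, controls included, were 0.0145 and -0.0243 in log10. Over the genes measured, with array 2 turned, the log2 medians were 0.00087 on array 1 and -0.0041 on array 2. Spot-level output was used for array 1 only.

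Ratios were converted to log2, array 2 was turned by the dyes in the labels, and the arrays were averaged. Control spots and 29 outlier spots were left out, and 0 remaining spots of array 1 were saturated. A probe had to be well above background in 1 or both channels of array 1, and the brightest stood for its gene. Probes were named through a RefSeq table of GRCm38.p6 by accession (24370), symbol (6300) or synonym (2425). The other 8072 carry the name printed on the array. Coordinates of probes are mm8 per the file header, and promoters are from RefSeq, GRCm38.p6. A call needed a 2-fold or larger ratio of the same sign on both arrays. This size rule was run on simulated data with the same noise for every gene, which gives no error rate for dim genes. For a probe dim in 1 channel, a fold given as "at least" sets the bright signal against the higher of the lowest signal well above background (198 in the control channel, 190 in the transgenic) and its own. Such folds come from array 1 alone, where dye bias is not balanced. Spots of a probe printed at least 5 times differed by a median SD of 0.09 in log2 ratio on each array. Having only 2 arrays limits the precision. Dye orientation, slide and scan change together and cannot be told apart.

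The members and lists were chosen with earlier results of these data known. Named genes are the 10 markers, Pla2g2f and up to 4 genes with the largest absolute means in each list. The smooth muscle genes Cnn1, Tagln, Myh11, Acta2, Mylk and Des were added after their values were seen. So were the fibroblast genes Col1a1, Col1a2 and Dcn. Sox17, Erg, Jam2, Adm and C1qb are named only for a dim channel. List genes named as not measured were also chosen after their values were seen. No gene was named for a pattern like that of a marker, since 2 arrays are too few to give one. The alternatives were each array alone, centring on the median gene, on the spike-ins (1 shift for both arrays, since the designed ratios cancel over the dye exchange) or by a loess curve against signal (span 0.3), a stricter and no filter, all probes averaged, a 1.5-fold threshold and array 1 from mean signals with normexp (offset 50) and loess in limma 3.58.1. Python 3.11.15 was used otherwise.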

Additional observations from a re-analysis of the deposited data

How the results depend on the processing

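The count of measured endothelial genes called at 2-fold on each array was 1, and between 1 and 2 with 1 array left out. It was 0 on the spike-in scale, 0 with all probes of a gene averaged, 0 with normexp and loess for array 1, and 2 at 1.5-fold. The number above 0 on each array was 7 of 7 and became 4 with the spike-ins. The median of 0.63 became 0.17 with the spike-ins and 0.48 with normexp and loess for array 1, and lay between 0.57 and 0.73 on single arrays. The medians of the 20 lists were above 0 in each alternative run but the spike-ins, where 10 were below 0, and above the median gene in each but the one with no filter on dim probes, where 19 were. Spike-in centring moves every gene by the same amount, and the 1.5-fold count differs by its threshold alone. Averaging the probes brought in the second Vwf probe, with a mean of 0.76. The cause of the remaining changes was not tested. Over all genes, calls were 107 higher and 56 lower with normexp and loess, 243 and 86 with both channels well above background, and 176 and 459 with the spike-ins, against 389 and 176. With no filter, 9 of 10 endothelial genes lay above 0 on each array, Tek being the exception by its brightest probe (-0.16, against 0.57 by its other probe), while the dimmer Pecam1 probe was at -0.30, and the 3 added genes were dim in both channels of array 1. Each array holds both genotypes as 1 ratio, so every value is already paired by array, which leaves 1 group of 2 arrays. No test across mice was possible, since the arrays were counted as 1 replicate per genotype. Low signal limits the result: for Pecam1, Tek and Tie1 a difference was not detectable here.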
